A study of Homo sapiens with 36 samples.

Results

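The transcripts of 34 genes of homologous recombination and the Fanconi anemia pathway were followed in 6 human colon cancer cell lines treated with the BET bromodomain inhibitor JQ1. The genes were taken by name for their known roles, with no cutoff on a measured value, but with earlier results of these data known. All 34 were found by their Entrez numbers among the 26468 genes of the deposited table. All 34 also passed the filter on low values (at least 1 RPKM in at least 3 libraries) that left 15542 genes to test. RPKM, a read count divided by the length of the gene model and by the size of the library, is corrected for gene length, so levels may be set beside each other across genes. Across samples, levels depend on the divisor used for library size.

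The lines were COLO205, COLO320, HCT116, HCT-15, HT-29 and SW480. Each is an established line, named in the labels with no genetic alteration made for the study, and received 0.5 µM JQ1 or the solvent DMSO for 24 h, with 3 libraries in each of 12 groups and 36 in all. Cells of both treatments were taken while growing logarithmically. JQ1 displaces the BET proteins, readers of acetylated histones that promote transcription, from chromatin. Because the labels do not say that the 3 libraries of a group came from separate cultures, the p-values below reflect the variation among these samples alone, part or all of which may be technical.

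Homologous recombination mends a broken chromosome by copying the intact sister strand: the broken end is found and trimmed, the BRCA proteins load a recombinase on the exposed strand, and the recombinase pairs it with the sister. The Fanconi anemia pathway handles DNA strands that are chemically joined to each other: a nuclear core complex attaches ubiquitin to the FANCD2 and FANCI pair, which then clamps onto DNA and calls in nucleases and recombination. Both pathways are used most during DNA synthesis, many of their genes are transcribed most in cycling cells, and inherited loss of several of them predisposes to cancer.

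Depth ran from 18.8 to 53.1 M gene reads per library (median 24.5 M). Replicates correlated at r = 0.9964 to 0.9979 across genes, which are not independent of each other, and no replicate pair agreed within sampling noise (chi-square per gene 1.22 to 3.2 over 36 pairs). RAD51B had the fewest reads of the 34 genes, 35 in its poorest library. Of 10 colon epithelial markers, COLO320 with DMSO had 5 at 1 RPKM or more, CDX2 at 1100 RPKM, KRT18 at 35.8, KRT8 at 20.6, CDH17 at 2.68 and EPCAM at 1.37, while KRT19 was at 0.04 and CDH1 at 0.00736. KRT8 and KRT18 were thus present in that line but below the 324 and 386 RPKM of the lowest other line with DMSO. The other lines with DMSO had from 6 (HCT116) to 10 (HT-29) of the 10 markers at 1 RPKM or more, and COLO320 with JQ1 had 3. The 6 fibroblast markers summed to 15.5 to 15.8 RPKM with DMSO and 2.93 to 3.23 with JQ1 in COLO320, and to at most 3.38 in every other group. The 6 leukocyte markers summed to 1500 to 1550 RPKM with DMSO and 1100 to 1140 with JQ1 in HT-29, and to 1040 to 1070 and 509 to 536 in COLO205, nearly all of it LYZ. In the other 4 lines that sum was at most 5.81. The part of these markers in the changes given here was not tested. In bulk RNA, a change in the share of cells that transcribe a gene and a change in the amount per cell cannot be told apart.

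Promoters are shown first because the members moved in opposite directions under 1 treatment. The sequences are RefSeq's, from the human assembly GRCh38.p14. The 34 genes had 41 promoters in the reference table, covering 30 of the genes, and FANCI, NBN, RAD54B and RMI2 had no entry. Each printed stretch is the 150 bases upstream of the gene's most upstream listed start, in the gene's own direction. Capitals mark a match to 1 of the searched motifs, on either strand: CCAAT (the NF-Y motif), CACGTG (the E-box), TTTGAA (the cell cycle homology region) or the E2F letters TTTGGCGC, TTTCCCGC, TTTGCCGC and TTTCGCGC. The first 3 belong to the members with the largest average falls, at chr17:35119861-35120010 (minus strand) for RAD51D, chr3:10026287-10026436 (plus strand) for FANCD2 and chr12:4538740-4538889 (plus strand) for RAD51AP1. No searched motif lay in the stretches of RAD51D and FANCD2, and 1 CCAAT match, read on the other strand, lay in that of RAD51AP1.
RAD51D: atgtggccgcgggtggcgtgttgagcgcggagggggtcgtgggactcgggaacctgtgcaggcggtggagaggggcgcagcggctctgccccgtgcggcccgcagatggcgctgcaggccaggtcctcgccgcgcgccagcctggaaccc
FANCD2: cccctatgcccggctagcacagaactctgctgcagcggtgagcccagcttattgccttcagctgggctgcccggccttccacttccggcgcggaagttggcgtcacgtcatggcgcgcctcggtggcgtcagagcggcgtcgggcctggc
RAD51AP1: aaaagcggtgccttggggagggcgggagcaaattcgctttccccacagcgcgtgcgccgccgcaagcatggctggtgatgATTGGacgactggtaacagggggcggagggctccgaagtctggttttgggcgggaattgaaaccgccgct

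The next 5 belong to the members whose average change was upward and that had an entry. They lie at chr11:108222917-108223066 (plus strand) for ATM, chr11:22625824-22625973 (minus strand) for FANCF, chr14:45135780-45135929 (plus strand) for FANCM, chr3:142578734-142578883 (minus strand) for ATR and chr13:32315358-32315507 (plus strand) for BRCA2. FANCF had 2 CCAAT matches and FANCM 1, ATM had a TTTGAA match, BRCA2 had an E-box, and the stretch of ATR had no match.
ATM: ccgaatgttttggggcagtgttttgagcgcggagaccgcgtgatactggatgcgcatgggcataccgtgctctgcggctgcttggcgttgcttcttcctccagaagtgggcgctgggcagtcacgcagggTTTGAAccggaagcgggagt
FANCF: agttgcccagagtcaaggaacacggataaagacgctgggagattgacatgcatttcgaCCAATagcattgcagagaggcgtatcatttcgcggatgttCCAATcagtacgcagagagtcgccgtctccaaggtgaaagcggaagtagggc
FANCM: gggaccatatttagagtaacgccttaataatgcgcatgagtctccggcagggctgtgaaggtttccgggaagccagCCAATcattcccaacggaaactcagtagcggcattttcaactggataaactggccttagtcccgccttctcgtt
ATR: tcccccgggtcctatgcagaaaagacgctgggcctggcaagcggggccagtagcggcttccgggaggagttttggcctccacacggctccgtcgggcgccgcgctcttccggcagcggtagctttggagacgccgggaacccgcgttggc
BRCA2: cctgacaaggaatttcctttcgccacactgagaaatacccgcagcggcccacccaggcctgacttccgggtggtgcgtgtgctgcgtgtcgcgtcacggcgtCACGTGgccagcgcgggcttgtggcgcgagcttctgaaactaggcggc

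Over whole promoters of 300 bases (250 before the start and 50 after), the E2F letters lay in 6 of the 41 promoters (14.6%), against 3.31% of all 35116 promoters in the table. CCAAT lay in 43.9% against 34.6%, the E-box in 7.32% against 7.26%, and TTTGAA in 7.32% against 15.2%. All 6 genes with the E2F letters, FANCA, FANCC, FANCD2, RMI1, TOPBP1 and XRCC2, were among the 25 genes with a promoter entry whose average change was downward. None of the 5 with an upward average and an entry held them, and most of the 25 lacked them too. Those 5 did not all rise throughout. In the tests given below, ATM and FANCF were lower in no line, while BRCA2, FANCM and ATR were lower in at least 1. A link between these letters and the direction of change was not tested. These shares describe letters in a window, not sites of binding, and alternative promoters of 1 gene share sequence. The 7 matches are printed below in 30 bases of promoter each, with the match in capitals. They were picked for printing after the matches and the changes had been seen. They lie at chr16:89816801-89816830 for FANCA, chr9:95317863-95317892 and chr9:95317737-95317766 for FANCC, chr3:10026424-10026453 for FANCD2, chr9:83980762-83980791 for RMI1, chr3:133661930-133661959 for TOPBP1 and chr7:152676102-152676131 for XRCC2. FANCD2 and RMI1 are on the plus strand and the others on the minus strand. The match in XRCC2 begins 21 bases after the start, those in FANCD2 and TOPBP1 2 and 7 bases before it, that in RMI1 32 bases before it, those in FANCC 172 and 46 bases before it, and that in FANCA 172 bases before it.
FANCA: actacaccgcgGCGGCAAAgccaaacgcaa
FANCC upstream match: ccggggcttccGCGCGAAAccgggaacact
FANCC match nearer the start: ttcgtcggaatTTTCCCGCgacgccgcggg
FANCD2: cgtcgggcctgGCGGGAAAgtcgaaaacta
RMI1: ggcgcgagcgcGCGGCAAAtcgggcgggaa
TOPBP1: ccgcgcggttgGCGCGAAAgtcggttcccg
XRCC2: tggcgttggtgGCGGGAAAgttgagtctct

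JQ1 was compared with DMSO in each line on log2(RPKM + 0.5), a scale that understates the change of low genes, with limma's moderated test and Benjamini-Hochberg adjustment over all 15542 genes. Calls are those with an adjusted p below 0.05. Most members fell. In HT-29, 29 of 34 fell and 3 rose, where 37.3% of all tested genes were called lower and 36.6% higher. In COLO205, 29 fell and 4 rose, against 38.6% and 34.2% of all genes. In SW480, 27 fell and 6 rose, against 40.1% and 33.9%. In HCT-15, 26 fell and 3 rose, against 35.4% and 34.8%. In that line the share of higher genes among all calls went from 49.6% to 38.7%, and the members that rose from 3 to 0, when total reads replaced the authors' divisor. COLO320 and HCT116 showed fewer falls. In COLO320, 19 fell and 7 rose, against 37.2% and 31%, and in HCT116, 18 fell and 7 rose, against 35.5% and 32.4%. For the average of the 6 within-line changes, 28 members fell and 6 rose, against 48.3% and 40.2% of all genes.

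The median member changed by -0.53 in HT-29, -0.43 in COLO205, -0.34 in HCT-15, -0.27 in SW480, -0.10 in COLO320 and -0.09 in HCT116 on the log2 scale. The median of all tested genes lay between -0.02 and 0 in each line. The 6 values of DMSO and JQ1 did not overlap for 34 members in COLO205, 32 in HT-29, 32 in SW480, 29 in HCT-15, 29 in COLO320 and 25 in HCT116. Such separation was common: it held for 74% of all tested genes in COLO205, 75% in HT-29, 73.8% in SW480, 73.2% in HCT-15, 71.6% in COLO320 and 69.1% in HCT116. HT-29 gave the lowest change of the 6 lines for 20 members. COLO320 gave the highest for 17 and HCT116 for 10. The share of all tested genes with their lowest or highest change in each line was not computed, so these counts have no background. The changes were mostly modest: a called fall of at least 2-fold on the log2(RPKM + 0.5) scale was reached by 4 members in HT-29, 2 in SW480, 1 in COLO205 and 1 in HCT-15, and by none in HCT116 or COLO320, and no member rose by that much in any line. Among all tested genes such falls made up 5.9% in HT-29, 4.88% in SW480, 5.63% in COLO205, 3.55% in HCT-15, 3.14% in HCT116 and 4.66% in COLO320. As a plain ratio of mean RPKM with no pseudocount, an alternative chosen after seeing the data, a fall of 2-fold or more was reached by 6 members in HT-29 and 2 in HCT-15, with the same counts as above in the other 4 lines.

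**Figure D1:**
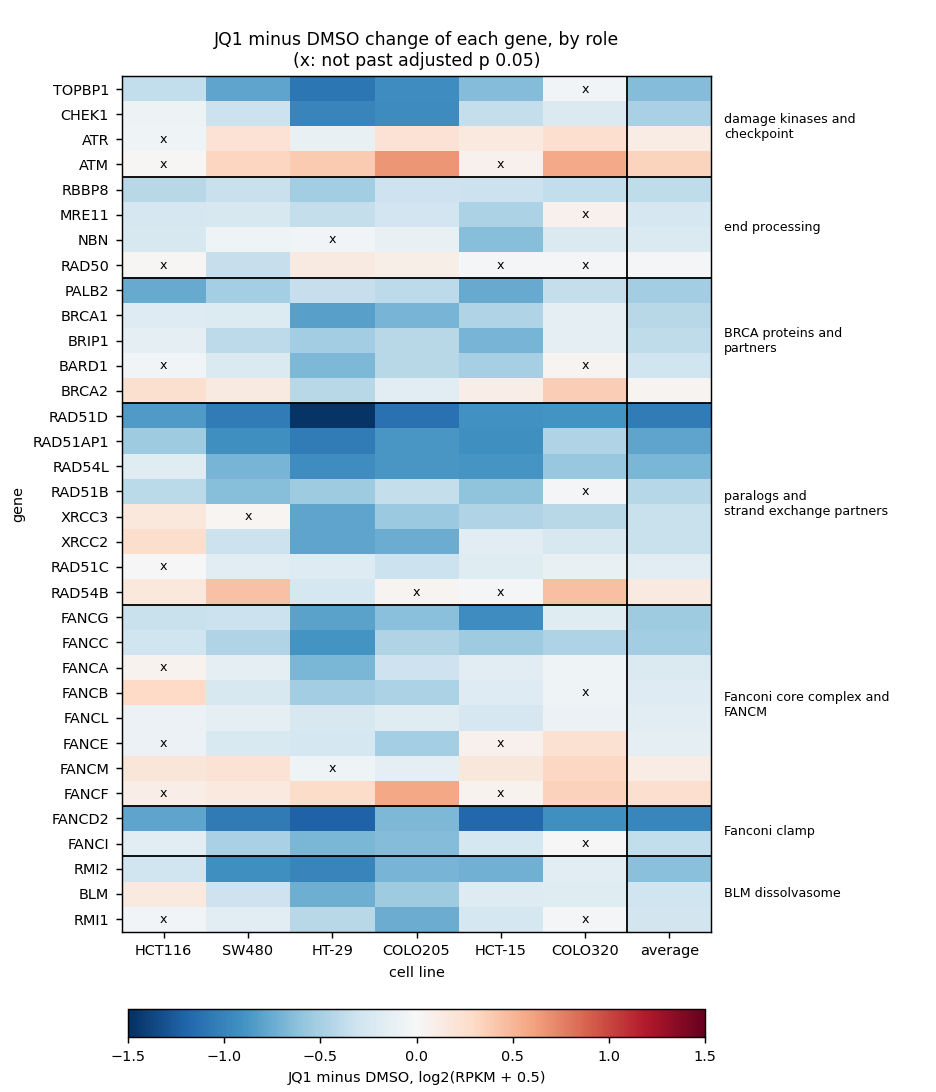
Change of each of the 34 genes with JQ1 in each line and for the average of the 6 lines, as JQ1 minus DMSO on the log2(RPKM + 0.5) scale; blue is lower, red is higher, and an x marks a change that missed an adjusted p of 0.05. RAD51D, FANCD2, RAD51AP1 and RAD54L are blue in all 6 columns, while ATM and FANCF are not called lower in any.

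Of the 34 genes, 13 were called lower in all 6 lines: RAD51D, FANCD2, RAD51AP1, RAD54L, RMI2, FANCG, PALB2, FANCC, CHEK1, BRCA1, BRIP1, RBBP8 and FANCL. That set took in 11.7% of all tested genes. A further 9 were lower in 1 to 5 lines and higher in none, against 24% of all tested genes. ATM and FANCF were called higher in at least 1 line and lower in none, against 28.4% of all tested genes, and 10 members were called in both directions, against 33.6%.

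Among the damage kinases and checkpoint genes, ATM and ATR rose on average and TOPBP1 and CHEK1 fell. TOPBP1, which switches on the ATR kinase, changed by -0.65 (SE 0.011, adjusted p = 1.88e-28) on average on the log2 scale. TOPBP1 stood at 30.03, 31.2 and 29.2 RPKM with DMSO and 23.6, 22.8 and 23.0 with JQ1 in HCT116, and at 36.8, 38.6 and 37.6 against 21.6, 21.8 and 21.1 in SW480. TOPBP1 read 32.6, 32.3 and 32.7 with DMSO and 14.9, 14.7 and 15.8 with JQ1 in HT-29, and 47.3, 47.0 and 48.0 against 25.4, 24.8 and 23.9 in COLO205. It gave 33.8, 31.5 and 33.0 with DMSO and 20.7, 20.8 and 20.4 with JQ1 in HCT-15, and 47.6, 47.5 and 48.7 against 46.2, 46.5 and 46.7 in COLO320. The JQ1 libraries lay below the DMSO libraries in all 6 lines, by a wide gap in 5 and by a narrow one in COLO320, whose change of -0.04 did not pass the test (adjusted p = 0.156). HT-29 fell furthest, 2.12-fold (log2 -1.08, SE 0.027). CHEK1, the effector kinase that ATR activates, fell in all 6 lines. CHEK1 stood at 19.9, 19.5 and 19.6 RPKM with DMSO and 18.7, 18.6 and 18.5 with JQ1 in HCT116, and at 22.4, 23.0 and 22.9 against 18.7, 17.8 and 18.0 in SW480. CHEK1 read 25.9, 26.1 and 25.3 with DMSO and 12.6, 12.9 and 12.6 with JQ1 in HT-29, and 26.2, 25.3 and 25.4 against 13.3, 13.2 and 12.8 in COLO205. It gave 20.7, 20.3 and 19.9 with DMSO and 15.4, 16.4 and 15.4 with JQ1 in HCT-15, and 14.2, 14.3 and 13.7 against 12.1, 12.1 and 12.02 in COLO320. Groups did not overlap in any line, and the JQ1 levels of HT-29 and COLO205, the highest lines with DMSO, dropped below the DMSO level of COLO320, the lowest line. The log2 change was -0.996 in HT-29 and -0.94 in COLO205 but -0.08 in HCT116, and of all members CHEK1 had the smallest adjusted p for a difference between lines (8.54e-21).

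ATM, the kinase that answers double-strand breaks, changed by 0.34 (SE 0.02, adjusted p = 1.43e-15) on average, the largest rise of the 34. ATM stood at 2.75, 3.00 and 2.49 RPKM with DMSO and 2.62, 2.99 and 2.71 with JQ1 in HCT116, and at 6.002, 6.44 and 6.46 against 7.98, 7.95 and 8.16 in SW480. ATM read 3.23, 3.36 and 3.69 with DMSO and 4.60, 4.59 and 4.76 with JQ1 in HT-29, and 6.02, 5.81 and 5.91 against 9.53, 9.54 and 9.78 in COLO205. It gave 4.25, 4.56 and 4.77 with DMSO and 4.61, 4.79 and 4.86 with JQ1 in HCT-15, and 4.14, 4.23 and 4.18 against 6.59, 6.41 and 6.41 in COLO320. JQ1 libraries were above all DMSO libraries in SW480, HT-29, COLO205 and COLO320, while the groups overlapped in HCT116 and HCT-15. COLO205 rose 1.58-fold (adjusted p = 6.77e-13) and COLO320 1.49-fold. ATR, the kinase of stalled replication forks, rose in 4 lines. ATR stood at 9.68, 9.14 and 8.87 RPKM with DMSO and 8.62, 9.03 and 8.70 with JQ1 in HCT116, and at 14.7, 15.7 and 15.7 against 18.0, 17.8 and 17.8 in SW480. ATR read 10.9, 11.2 and 12.03 with DMSO and 10.5, 10.3 and 10.6 with JQ1 in HT-29, and 11.03, 10.8 and 10.5 against 12.5, 12.7 and 12.7 in COLO205. It gave 11.3, 11.1 and 11.2 with DMSO and 12.4, 12.7 and 12.3 with JQ1 in HCT-15, and 10.8, 10.8 and 11 against 13.3, 12.9 and 12.99 in COLO320. JQ1 was above DMSO without overlap in SW480, COLO205, HCT-15 and COLO320, below it without overlap in HT-29, and overlapping in HCT116. The log2 change ran from -0.12 in HT-29 (adjusted p = 0.00144) to 0.255 in COLO320 (adjusted p = 2.76e-08). A processed pseudogene on the opposite strand shares 2048 exon bases with ATR in the GENCODE annotation, and the sources used here do not state whether reads were assigned by strand.

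All 4 genes of end processing fell on average, with a median of -0.24. MRE11, the nuclease of the complex that first trims a broken end, changed by -0.26 (SE 0.016, adjusted p = 3.31e-15) on average. MRE11 stood at 4.08, 4.28 and 3.76 RPKM with DMSO and 3.17, 3.34 and 3.44 with JQ1 in HCT116, and at 11.5, 12.3 and 12.2 against 10.1, 10.2 and 10.04 in SW480. MRE11 read 14.4, 14.9 and 14.1 with DMSO and 11.1, 11.4 and 11.2 with JQ1 in HT-29, and 11.97, 11.1 and 11.5 against 9.68, 9.17 and 9.19 in COLO205. It gave 7.75, 7.80 and 7.28 with DMSO and 5.26, 5.39 and 5.33 with JQ1 in HCT-15, and 12.8, 12.6 and 13.01 against 13.7, 13.8 and 12.8 in COLO320. MRE11 was lower with JQ1 without overlap in 5 lines, and in COLO320 the groups overlapped with the JQ1 mean above. The largest fall was in HCT-15, 1.39-fold (log2 -0.48, adjusted p = 4.38e-12). RAD50, the coiled-coil partner that tethers ends, was called lower in SW480 (-0.35), higher in HT-29 (0.14) and COLO205 (0.09) and not called in the other 3 lines. Its average of -0.03 passed the test narrowly (adjusted p = 0.0406) and lost the call under other scalings (adjusted p = 0.343 with quantile scaling). A same-strand GENCODE locus shares 7784 of the 9771 exon bases of RAD50 there. The gene model behind the RAD50 values has 6597 bases, and the overlap within it is not known. NBN, the third subunit, which recruits ATM, was lower in 5 lines and fell most in HCT-15, from 30.1 ± 0.855 to 19.1 ± 0.283 RPKM (SD, n = 3). Its call in SW480 (log2 -0.065, adjusted p = 0.0493) was lost under several alternatives. RBBP8, which encodes CtIP, the factor that starts resection, was lower in all 6 lines, between -0.53 in HT-29 and -0.31 in COLO205, and only FANCL had a larger adjusted p for the difference between lines (0.00518).

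Of the BRCA proteins and their partners 4 fell on average and BRCA2 rose. BRCA1, the ubiquitin ligase subunit that steers breaks toward recombination, changed by -0.41 (SE 0.013, adjusted p = 5.19e-22) on average and was called lower in all 6 lines. BRCA1 stood at 14.2, 14.1 and 13.9 RPKM with DMSO and 12.6, 12.2 and 12.03 with JQ1 in HCT116, and at 16.8, 18.2 and 17.7 against 15.7, 15.3 and 14.5 in SW480. BRCA1 read 12.9, 13.3 and 14.1 with DMSO and 7.29, 7.55 and 7.42 with JQ1 in HT-29, and 29.8, 31.03 and 29.9 against 18.4, 18.5 and 18.6 in COLO205. It gave 16.1, 16.5 and 16.3 with DMSO and 11.7, 12.3 and 11.5 with JQ1 in HCT-15, and 15.4, 15.4 and 15.7 against 14.1, 14.4 and 13.6 in COLO320. No DMSO library overlapped a JQ1 library in any line, and the distance was large in HT-29 and COLO205 and small in HCT116 and COLO320. HT-29 fell 1.75-fold (log2 -0.81, SE 0.032) and COLO320 1.1-fold (-0.14). BRCA2, which loads the strand-exchange recombinase, moved up in some lines and down in others. BRCA2 stood at 3.60, 3.79 and 3.39 RPKM with DMSO and 4.26, 4.54 and 4.21 with JQ1 in HCT116, and at 8.72, 9.14 and 8.89 against 9.89, 9.96 and 9.62 in SW480. BRCA2 read 8.22, 7.94 and 8.88 with DMSO and 6.17, 6.09 and 6.15 with JQ1 in HT-29, and 12.6, 12.8 and 12.8 against 10.95, 11.1 and 11.7 in COLO205. It gave 5.48, 5.95 and 6.02 with DMSO and 6.19, 6.23 and 6.36 with JQ1 in HCT-15, and 6.92, 7.16 and 7.07 against 9.20, 9.29 and 9.17 in COLO320. JQ1 libraries lay above DMSO libraries in HCT116, SW480, HCT-15 and COLO320 and below them in HT-29 and COLO205, with no overlap in any line. The log2 change was 0.365 in COLO320 (adjusted p = 1.05e-09) and -0.41 in HT-29 (adjusted p = 5.86e-11), and the test of a difference between lines gave an adjusted p of 5.14e-13. Its average of 0.04 (adjusted p = 0.0138) was 0.008 with an adjusted p of 0.608 when total reads were the divisor, and its HCT-15 change of 0.10 then turned to -0.016 (adjusted p = 0.752).

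The partners of the BRCA proteins fell. PALB2, the bridge between BRCA1 and BRCA2, was lower in all 6 lines and averaged -0.52. Its largest falls were in HCT116, from 8.03 ± 0.143 to 4.56 ± 0.0795 RPKM, and in HCT-15, from 4.32 ± 0.0859 to 2.37 ± 0.141 (SD, n = 3), so HCT116, the line with the fewest falls, was among the strongest for PALB2. BRIP1, a helicase bound to BRCA1, was lower in all 6 lines, from -0.70 in HCT-15 to -0.13 in COLO320. BARD1, the other subunit of the BRCA1 ligase, was lower in 4 lines and not called in HCT116 (-0.045) and COLO320 (0.04), where its groups overlapped.

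**Figure D2:**
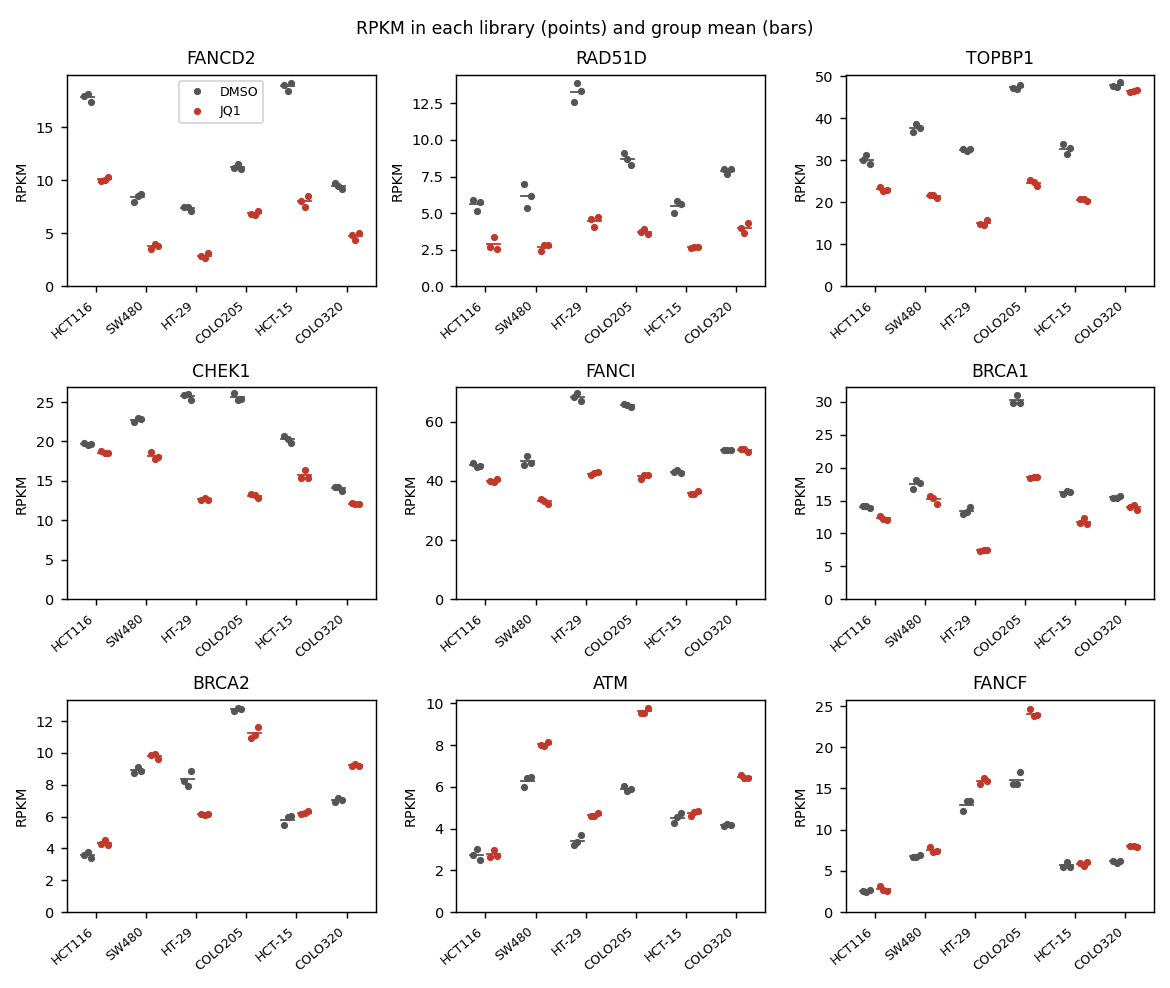
RPKM of 9 of the genes in each library (points) and the mean of each group (bars), DMSO in grey and JQ1 in red, for the 6 lines. FANCD2 and RAD51D are lower with JQ1 in all 6 lines, FANCI and TOPBP1 keep close to their DMSO level in COLO320, and BRCA2 is above DMSO in 4 lines and below it in 2.

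Of the 8 recombinase paralogs and strand exchange partners 7 fell on average and RAD54B rose. RAD51D, a paralog that works in a complex stabilising the recombinase filament, changed by -1.05 (SE 0.034, adjusted p = 1.02e-21) on average, the largest fall of the 34. RAD51D stood at 5.89, 5.16 and 5.74 RPKM with DMSO and 2.72, 3.40 and 2.57 with JQ1 in HCT116, and at 7.02, 5.34 and 6.15 against 2.45, 2.86 and 2.84 in SW480. RAD51D read 12.6, 13.9 and 13.3 with DMSO and 4.62, 4.03 and 4.73 with JQ1 in HT-29, and 9.07, 8.70 and 8.32 against 3.71, 3.93 and 3.55 in COLO205. It gave 5.03, 5.85 and 5.60 with DMSO and 2.64, 2.67 and 2.72 with JQ1 in HCT-15, and 7.98, 7.65 and 8.02 against 4.01, 3.65 and 4.32 in COLO320. Every JQ1 library was below every DMSO library of its line, and HT-29, the line with the highest DMSO level, fell furthest. The fall was 2.78-fold in HT-29 (log2 -1.475, SE 0.084) and 1.8-fold in HCT116 (-0.85), the smallest. A readthrough locus on the same strand shares 905 exon bases with RAD51D, so reads of the 2 may be mixed.

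RAD51AP1, which stimulates pairing by the recombinase, changed by -0.79 (SE 0.021, adjusted p = 5.15e-24) on average. RAD51AP1 stood at 15.7, 16.3 and 16.4 RPKM with DMSO and 10.96, 10.95 and 10.9 with JQ1 in HCT116, and at 21.3, 24.0 and 23.3 against 11.96, 11.7 and 11.7 in SW480. RAD51AP1 read 18.5, 20.3 and 17.5 with DMSO and 9.30, 8.80 and 8.27 with JQ1 in HT-29, and 17.3, 17.1 and 16.0 against 9.33, 8.74 and 8.81 in COLO205. It gave 16.9, 18.2 and 18.1 with DMSO and 8.33, 9.68 and 9.50 with JQ1 in HCT-15, and 21.5, 22.3 and 21.7 against 16.0, 15.5 and 15.9 in COLO320. The groups did not overlap in any line, the DMSO levels of the 6 lines were close together, and COLO320 kept the highest level with JQ1. HT-29 fell 2.08-fold and COLO320 1.37-fold. RAD54L, a translocase that remodels DNA during strand exchange, changed by -0.69 (SE 0.02, adjusted p = 6.81e-23) on average. RAD54L stood at 14.5, 14.8 and 15.6 RPKM with DMSO and 12.7, 13.5 and 13.4 with JQ1 in HCT116, and at 14.5, 14.1 and 14.3 against 9.26, 8.27 and 8.31 in SW480. RAD54L read 12.4, 12.9 and 11.2 with DMSO and 6.33, 6.58 and 5.60 with JQ1 in HT-29, and 13.6, 14.9 and 13.7 against 7.54, 7.21 and 7.54 in COLO205. It gave 17.3, 17.9 and 16.9 with DMSO and 9.44, 9.28 and 8.85 with JQ1 in HCT-15, and 18.2, 17.6 and 17.8 against 12.1, 11.9 and 11.8 in COLO320. Groups were apart in all 6 lines, with the JQ1 values of HCT116 nearest to DMSO. The log2 change of RAD54L was -0.18 in HCT116 (adjusted p = 0.00232) and between -0.93 and -0.56 in the other lines. LRRC41, on the opposite strand, shares 806 of the 3212 exon bases of RAD54L, so reads of the 2 may be mixed if reads were not assigned by strand.

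RAD54B, a close relative of RAD54L, took the opposite course in 3 lines and averaged 0.14 (SE 0.018, adjusted p = 4.59e-08). RAD54B stood at 11.8, 11.6 and 11.8 RPKM with DMSO and 13.2, 13.4 and 13.1 with JQ1 in HCT116, and at 4.27, 4.95 and 4.67 against 6.80, 6.22 and 6.28 in SW480. RAD54B read 5.01, 5.52 and 4.94 with DMSO and 3.96, 4.29 and 4.43 with JQ1 in HT-29, and 6.08, 6.06 and 5.86 against 6.19, 6.28 and 6.14 in COLO205. It gave 7.39, 7.07 and 7.06 with DMSO and 7.18, 6.82 and 7.18 with JQ1 in HCT-15, and 5.04, 5.02 and 5.05 against 7.18, 6.80 and 7.28 in COLO320. JQ1 libraries were above DMSO without overlap in HCT116, SW480, COLO205 and COLO320 and below in HT-29, and the groups overlapped in HCT-15. RAD54B rose 1.37-fold in COLO320 and 1.35-fold in SW480 and fell 1.2-fold in HT-29, while its COLO205 change of 0.04 missed the test. In the same 2 lines that raised RAD54B most, RAD54L fell by 0.56 and 0.70 on the log2 scale. FSBP, on the same strand, shares 3139 of the 5313 exon bases that GENCODE gives RAD54B, so reads of the 2 may be mixed. The gene model behind the RAD54B values has 4243 bases, and the overlap within it is not known.

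Of the other paralogs, RAD51B was called lower in 5 lines, up to -0.64 in SW480, at levels of 1.88 ± 0.135 RPKM with DMSO there and 0.793 ± 0.0965 in HT-29, and it was not called in COLO320 (-0.015). At such low levels the pseudocount sets the order of lines. As a ratio of mean RPKM the fall was largest in HT-29, to 0.396 with JQ1, against 1.03 with JQ1 in SW480. RAD51C, the paralog shared by both paralog complexes, was lower in 5 lines by a little, at most -0.32 in COLO205, and stood at 0.01 in HCT116. XRCC2 rose in HCT116 from 8.23 ± 0.345 to 9.96 ± 0.122 RPKM and fell in HT-29 from 11.4 ± 0.481 to 6.37 ± 0.25 (SD, n = 3). XRCC2 fell in the other 4 lines too. XRCC3 rose in HCT116 (0.16), did not pass in SW480 (0.02) and fell in 4 lines, most in HT-29 (-0.79). KLC1, on the opposite strand, shares 5756 of the 7507 exon bases that GENCODE gives XRCC3. The gene model behind the XRCC3 values has only 2639 bases. How much of it KLC1 overlaps is not known, so reads of the 2 may be mixed.

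Both genes of the Fanconi clamp fell on average, and their median of -0.67 was the lowest of the roles. FANCD2, the subunit whose ubiquitin marks the active pathway, changed by -0.97 (SE 0.019, adjusted p = 8.46e-27) on average. FANCD2 stood at 18.0, 18.1 and 17.3 RPKM with DMSO and 9.97, 10.1 and 10.3 with JQ1 in HCT116, and at 7.97, 8.56 and 8.68 against 3.53, 3.95 and 3.81 in SW480. FANCD2 read 7.46, 7.52 and 7.15 with DMSO and 2.88, 2.70 and 3.14 with JQ1 in HT-29, and 11.1, 11.5 and 11.1 against 6.78, 6.75 and 7.13 in COLO205. It gave 19.0, 18.4 and 19.1 with DMSO and 8.03, 7.52 and 8.54 with JQ1 in HCT-15, and 9.73, 9.48 and 9.15 against 4.86, 4.38 and 5.001 in COLO320. All JQ1 values were below all DMSO values of the same line, and the lines with much FANCD2, HCT116 and HCT-15, and those with little, SW480 and HT-29, all fell. The fall was 2.31-fold in HT-29 (log2 -1.21, SE 0.048), 2.27-fold in HCT-15 and 1.59-fold in COLO205, the smallest. FANCI, its partner in the clamp, had the highest DMSO level of the 34 genes by the mean over the 6 lines, although not in every line, and changed by -0.375 (SE 0.008, adjusted p = 1.13e-25) on average. FANCI stood at 45.9, 44.8 and 44.99 RPKM with DMSO and 39.98, 39.7 and 40.6 with JQ1 in HCT116, and at 45.5, 48.3 and 46.2 against 33.97, 33.1 and 32.3 in SW480. FANCI read 68.2, 69.7 and 66.9 with DMSO and 41.8, 42.5 and 42.9 with JQ1 in HT-29, and 65.8, 65.8 and 65.1 against 40.6, 42.1 and 42.0 in COLO205. It gave 43.0, 43.5 and 42.7 with DMSO and 35.7, 35.5 and 36.6 with JQ1 in HCT-15, and 50.4, 50.5 and 50.3 against 50.9, 50.7 and 49.9 in COLO320. FANCI was lower without overlap in 5 lines, and the groups overlapped in COLO320. Its log2 change was -0.68 in HT-29 and 0.00 in COLO320 (adjusted p = 0.959), where FANCD2 fell by 0.925. The difference between the 2 genes was not tested. The test that the FANCI change differs between lines gave an adjusted p of 1.09e-18.

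The core complex, which ubiquitinates the clamp, had a median average change of -0.18 over 8 genes including FANCM, of which 6 fell and 2 rose. FANCG, a scaffold subunit, was lower in all 6 lines and fell from 26.7 ± 0.160 to 13.8 ± 0.462 RPKM in HCT-15 (SD, n = 3). FANCC was lower in all 6 lines, most in HT-29, from 9.85 ± 0.150 to 5.04 ± 0.0835. FANCL, the ubiquitin ligase itself, was lower in all 6 lines by a small amount, between -0.26 in HCT-15 and -0.09 in COLO320, and its calls in HCT116 and COLO320 were lost in several alternatives. VRK2, on the opposite strand, shares 452 of the 2412 exon bases of FANCL. FANCA was lower in 5 lines, most in HT-29 (-0.68), and stood at 0.05 in HCT116 without passing the test. Its COLO320 call (log2 -0.07, adjusted p = 0.0482) was lost in several alternatives, and ZNF276 on the opposite strand shares 2302 of its exon bases. FANCB, the X-linked core gene, rose in HCT116 (0.30), fell in 4 lines and did not pass in COLO320 (-0.06). FANCE, which links the core to FANCD2, rose in COLO320 (0.23), fell in SW480, HT-29 and COLO205, most in the last (-0.51), and did not pass in HCT116 or HCT-15.

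FANCF, the adaptor within the core, rose next to ATM, with an average of 0.25 (SE 0.02, adjusted p = 1.53e-12). FANCF stood at 2.60, 2.48 and 2.65 RPKM with DMSO and 3.12, 2.70 and 2.62 with JQ1 in HCT116, and at 6.70, 6.66 and 6.90 against 7.94, 7.28 and 7.41 in SW480. FANCF read 12.2, 13.5 and 13.4 with DMSO and 15.5, 16.2 and 15.9 with JQ1 in HT-29, and 15.5, 15.5 and 17 against 24.6, 23.8 and 23.9 in COLO205. It gave 5.502, 6.05 and 5.44 with DMSO and 6.02, 5.59 and 6.02 with JQ1 in HCT-15, and 6.25, 6.01 and 6.22 against 8.05, 7.97 and 7.92 in COLO320. JQ1 libraries were above DMSO without overlap in SW480, HT-29, COLO205 and COLO320, and overlapped them in HCT116 and HCT-15, the 2 lines with the lowest DMSO means. COLO205, the line with the highest DMSO level of FANCF, rose furthest, 1.49-fold (log2 0.58, adjusted p = 1.17e-11). ATM was called higher in these 4 lines as well. GAS2, on the opposite strand, shares 333 of the 2952 exon bases of FANCF. FANCM, the translocase that anchors the core at damaged DNA, averaged 0.11 (SE 0.016, adjusted p = 5.47e-07). FANCM stood at 4.08, 4.42 and 4.09 RPKM with DMSO and 4.80, 4.79 and 4.84 with JQ1 in HCT116, and at 2.60, 2.90 and 2.58 against 3.39, 3.11 and 3.12 in SW480. FANCM read 1.42, 1.53 and 1.56 with DMSO and 1.42, 1.40 and 1.41 with JQ1 in HT-29, and 3.12, 3.29 and 3.11 against 2.76, 2.78 and 2.88 in COLO205. It gave 4.95, 4.95 and 5.05 with DMSO and 5.68, 5.73 and 5.55 with JQ1 in HCT-15, and 2.80, 2.83 and 2.83 against 3.71, 3.69 and 3.47 in COLO320. FANCM was higher without overlap in HCT116, SW480, HCT-15 and COLO320 and lower without overlap in COLO205, and the groups overlapped in HT-29. Its log2 change was 0.31 in COLO320 (adjusted p = 6.68e-08) and -0.15 in COLO205 (adjusted p = 0.00127).

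The 3 members taken from the BLM dissolvasome, which takes apart crossed strands after recombination, fell on average. BLM, its helicase, changed by -0.30 (SE 0.011, adjusted p = 3.03e-20) on average, a call lost with the cell line as the unit (limma adjusted p = 0.0708). BLM stood at 14.5, 14.5 and 15.1 RPKM with DMSO and 16.3, 15.9 and 16.8 with JQ1 in HCT116, and at 12.2, 12.7 and 12.8 against 9.98, 9.99 and 10.2 in SW480. BLM read 14.6, 15.8 and 15.4 with DMSO and 8.77, 8.88 and 9.24 with JQ1 in HT-29, and 22.1, 21.8 and 22.0 against 15.1, 15.4 and 14.6 in COLO205. It gave 16.1, 15.6 and 15.4 with DMSO and 13.6, 14.0 and 13.5 with JQ1 in HCT-15, and 11.2, 10.9 and 11.2 against 9.64, 9.62 and 9.86 in COLO320. BLM was higher with JQ1 without overlap in HCT116 and lower without overlap in the other 5 lines. The log2 change was 0.14 in HCT116 (adjusted p = 4.62e-05) and -0.74 in HT-29 (adjusted p = 1.03e-19). RMI2, a small binding partner, was lower in all 6 lines and averaged -0.63, from -0.99 in HT-29 to -0.15 in COLO320. RMI1, the other partner, was lower in 4 lines, most in COLO205, from 19.0 ± 0.950 to 11.1 ± 0.327 RPKM (SD, n = 3). RMI1 was not called in HCT116 or COLO320. TOP3A, the topoisomerase of the complex, was listed with the other pathway genes below. Its average change was not called (log2 -0.024, limma adjusted p = 0.165).

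The change with JQ1 differed between the 6 lines for all 34 members by the F test of limma, against 93.3% of all tested genes, so heterogeneity between lines was the rule in these data. The 10 members called lower in at least 1 line and higher in at least 1 other were XRCC3, XRCC2, BLM, FANCB, FANCE, RAD50, BRCA2, FANCM, ATR and RAD54B. HCT116 was the line in which XRCC3, XRCC2, BLM and FANCB were called higher. FANCE was called higher in COLO320, and RAD50 in HT-29 and COLO205. ATR and RAD54B fell in HT-29, FANCM in COLO205 and BRCA2 in both, and these 4 rose in at least 3 other lines. With the cell line as the unit of replication, 16 members were lower and 2, ATM and FANCF, higher for the average. The share of all tested genes called in that fit was not computed, so these counts have no background beside them. The average call was then lost for 12 of the members that fell in the fit over libraries, RAD51C, XRCC2, XRCC3, BARD1, FANCA, FANCB, FANCE, FANCL, BLM, RAD50, NBN and RMI1, with adjusted p from 0.0563 to 0.808. It was lost as well for BRCA2, FANCM, ATR and RAD54B, which rose in that fit, with adjusted p from 0.27 to 0.77.

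Beside the 34 genes, 62 others of the pathways were listed by function. For the average, 32 of 62 fell, 23 rose and 7 did not pass, where 48.3% of all tested genes were called lower and 40.2% higher. The median of the 62 was -0.04, the same as that of all tested genes, while the median of the 34 was -0.32. The 34 and the 62 were chosen with earlier results of these data known, and the difference between their medians was not tested. The 18 further genes of the Fanconi anchor and nuclease arm held 12 that fell and 4 that rose, with a median of -0.27. The 22 further genes of resection and strand exchange held 8 that fell and 9 that rose, the 11 of the BRCA1-A complex and chromatin marks 6 and 5, and the 11 checkpoint genes 6 and 5. The largest falls were those of DCLRE1A, a nuclease of crosslink repair (-1.15), TIPIN, a fork protection factor (-0.90), and FAAP24, the partner of FANCM (-0.85). FANCM itself averaged 0.11, in the opposite direction. The largest rises were those of SLX4, the scaffold of crosslink nucleases (0.75), H2AX, the histone phosphorylated by ATM at breaks (0.66), and ABRAXAS1, a scaffold of the BRCA1-A complex (0.55).

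Neighbouring processes were set beside the 34 genes in the plot of list medians, which carry no test. All 31 replication genes fell for the average, with a median of -0.54, below that of the 34 in every line (-0.93 against -0.53 in HT-29 and -0.17 against -0.09 in HCT116). Of 24 mitosis genes 17 fell and 5 rose, with a median of -0.19, and of 13 end joining genes, the other main route of break repair, 8 fell and 4 rose, with a median of -0.11. Over all tested genes 48.3% were called lower and 40.2% higher for the average. In each of the 6 lines the replication median was lowest, that of the 34 genes next and that of end joining above it. The part of the replication and mitosis genes' change in that of the 34 was not tested. These lists, too, were chosen with earlier results of these data known.

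**Figure D3:**
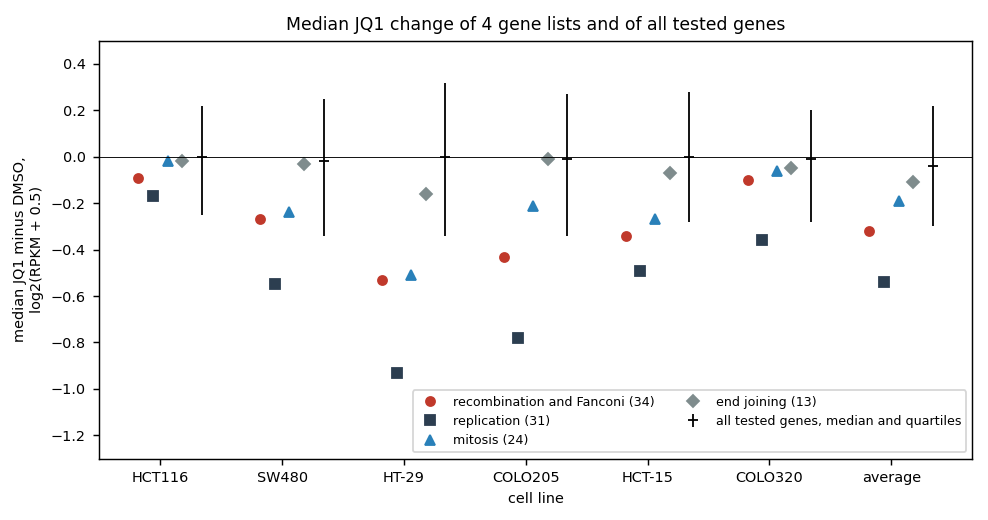
Median JQ1 minus DMSO change on the log2(RPKM + 0.5) scale of the 34 genes, 31 replication, 24 mitosis and 13 end joining genes in each line and for the average; the black ticks and bars give the median and quartiles of all 15542 tested genes. The 34 genes lie between the replication and end joining lists in all 6 lines.

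Levels with DMSO differed between lines for all 34 members, against 98.8% of all tested genes. FANCI had the highest mean over the 6 lines, 53.2 RPKM, and RAD51B the lowest, 1.55. Most members varied by a small factor between lines: the highest line mean was 1.42 times the lowest for RAD51AP1 and 6.21 times for FANCF, the extremes. FANCF ran from 2.58 ± 0.0839 in HCT116 through 5.67 ± 0.333 in HCT-15, 6.16 ± 0.131 in COLO320, 6.75 ± 0.127 in SW480 and 13.04 ± 0.700 in HT-29 to 16.0 ± 0.869 RPKM in COLO205 (SD, n = 3), and each step passed the test. RAD51C was at 11.1 ± 0.418 RPKM in HT-29 and 50.1 ± 1.54 in SW480, with all 5 steps between neighbouring lines past the test.

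MRE11 was lowest in HCT116, 4.04 ± 0.260 RPKM, and next lowest in HCT-15, 7.61 ± 0.287, and the step from COLO205 down to HCT-15 was 0.57 on the log2 scale. The levels of SW480 and COLO205 did not differ beyond their spread for MRE11 (adjusted p = 0.169). FANCL stood out in COLO320, 67.9 ± 0.742 RPKM against 39.2 ± 0.453 in the next line, HT-29. BRCA1 stood out in COLO205, 30.3 ± 0.676 RPKM against 17.6 ± 0.717 in SW480, and BRCA2 was highest in COLO205 as well, 12.8 ± 0.107, and lowest in HCT116, 3.59 ± 0.200. FANCD2 was highest in HCT-15 and HCT116, which did not differ beyond their spread (adjusted p = 0.126), and ATM was highest in SW480 and COLO205, which did not either (adjusted p = 0.107). Over the 170 steps between neighbouring lines in the order of levels, 123 passed the test, and for 7 members all 5 did. Over all tested genes 66.1% of such steps passed, and 18.7% of genes passed all 5. COLO320 held the highest level of 9 members and HCT116 the lowest of 11, for which no share over all tested genes was computed.

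**Figure D4:**
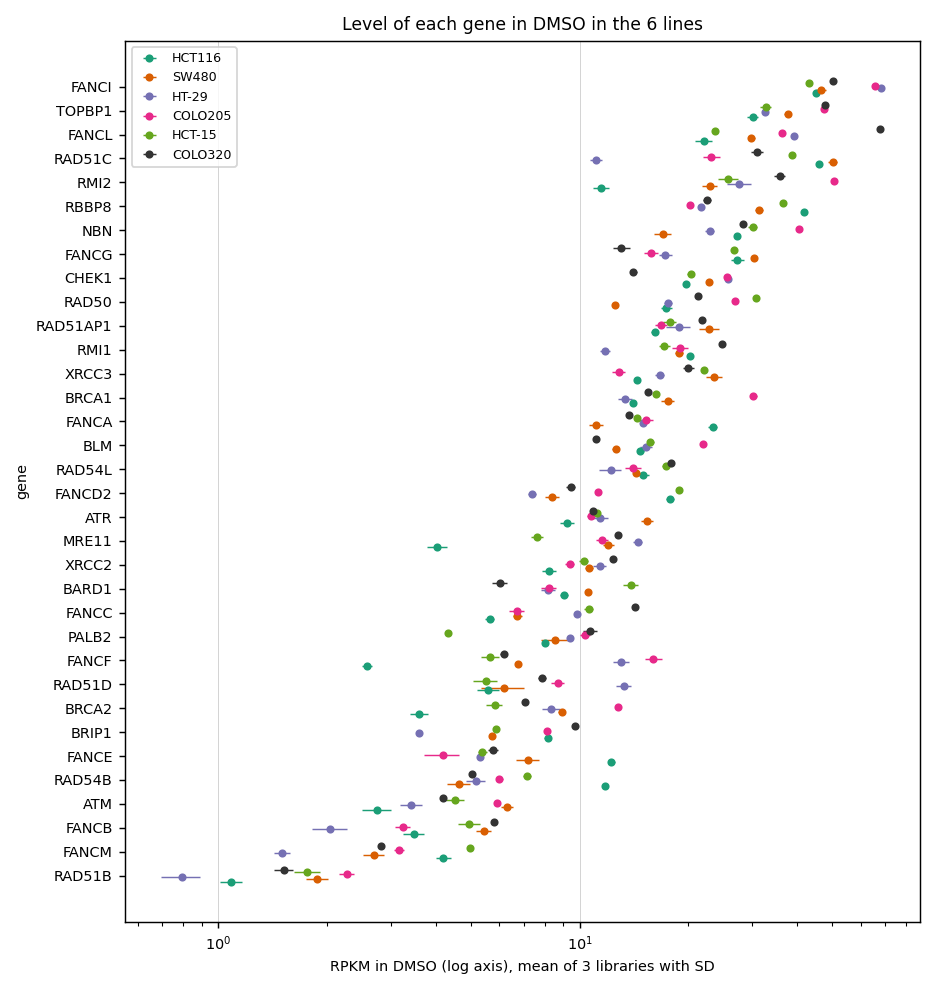
Level of each of the 34 genes with DMSO in the 6 lines, as the mean RPKM of 3 libraries with its SD, on a log axis, ordered by the mean over the lines. By that mean FANCI is highest and RAD51B lowest, and single lines stand apart for FANCF and MRE11 (HCT116, low), RAD51C (HT-29, low) and FANCL (COLO320, high).

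Across the 34 genes, the average change had a Spearman rho of -0.30 with the DMSO level and of 0.25 with the length of the gene model, as a description over genes that share libraries. Over all tested genes the values were -0.05 and 0.05. The 2 longest gene models, ATM at 13147 bases and BRCA2 at 11386 bases, belong to members whose average was upward, although that of BRCA2 lost its call with total reads as the divisor. The next longest were mixed: ATR at 8251 bases averaged 0.11, BRIP1 at 8166 bases -0.38 and BRCA1 at 7362 bases -0.41. RAD51D, the member with the largest fall, has a model of 2583 bases and FANCD2 one of 5947 bases.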

How the data were processed

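The authors' deposited table gives RPKM per gene for 36 libraries, with 0 columns unmatched to a sample. The submitters' processing notes list GSNAP, DESeq and limma. They name the build NCBIM37, a mouse assembly name, although the cells are human, so no coordinates come from the table. Symbols came from RefSeq GRCh38.p14, which named 24519 of 26468 Entrez numbers. Whether reads were assigned by strand is not stated. Shared exon bases were taken from all exons of a gene in GENCODE. These differ from the gene models behind the RPKM values, so the overlap within those models is not known.

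Whole reads were recovered from the RPKM steps (within 0.01 read for 100% of 23499 genes above 0), giving depths of 18.8 to 53.1 M. A value of 0 is compatible with up to 3 reads (95% confidence, counting error only). The values log2(RPKM + 0.5) of 15542 genes with at least 1 RPKM in 3 libraries were fitted with limma 3.58.1 (R 4.3.3), with 12 group means and a mean-variance trend. Two-sided p-values were adjusted by Benjamini-Hochberg over all tested genes of a contrast. On simulated data for the HT-29 comparison of 15542 genes, 72.1% of changes of 0.25, 92.4% of 0.5 and 98.5% of 1 on the log2 scale were called. The simulation left 15342 genes unchanged, whereas the real HT-29 comparison called 37.3% of genes lower and 36.6% higher. The adjustment for many genes depends on that share, so the simulated shares do not carry over to the real comparison. Plots and tables used Python 3.11.15, numpy 2.4.6, pandas 2.3.3 and matplotlib 3.10.9.

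The members and lists were chosen with earlier results of these data known. Values in every library are given for BRCA1, BRCA2, FANCD2, ATM and MRE11, the 5 largest average changes of 1 sign in all 6 lines, the 4 smallest p-values for a difference between lines, and the members higher on average. Of the other pathway genes the 3 largest rises and falls are named. Alternatives were other pseudocounts, filters and scalings, voom on the recovered reads, each line fitted alone, the cell line as the unit, a replicate block and leaving out each library.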

Additional observations from a re-analysis of the deposited data

Results flagged for a closer look

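The change with JQ1 differed between the 6 lines for all 34 members in limma's F test of the difference itself, where 93.3% of all tested genes passed too. Among the damage kinases and checkpoint genes the adjusted p was 8.54e-21 for CHEK1, 3.21e-19 for TOPBP1, 1.01e-09 for ATM and 2.62e-09 for ATR. Among the genes of end processing the adjusted p was 7.89e-13 for NBN, 8.89e-11 for RAD50, 1.24e-08 for MRE11 and 0.00518 for RBBP8. Among the BRCA proteins and their partners the adjusted p was 1.63e-14 for BRCA1, 5.14e-13 for BRCA2, 6.38e-12 for BRIP1, 4.45e-08 for BARD1 and 8.85e-07 for PALB2. Among the strand exchange partners the adjusted p was 1.96e-10 for RAD54L, 2.89e-11 for RAD54B and 1.58e-08 for RAD51AP1. Among the recombinase paralogs the adjusted p was 1.03e-15 for XRCC2, 6.1e-14 for XRCC3, 5.87e-05 for RAD51C, 8.84e-05 for RAD51B and 0.000179 for RAD51D. In the Fanconi clamp the adjusted p was 1.09e-18 for FANCI and 2.83e-08 for FANCD2. Among the first 4 genes of the core complex the adjusted p was 8.54e-14 for FANCA, 7.52e-13 for FANCG, 7.93e-10 for FANCC and 1.05e-08 for FANCB. Among the remaining core genes and FANCM the adjusted p was 4.61e-08 for FANCM, 3.47e-07 for FANCF, 1.58e-06 for FANCE and 0.00813 for FANCL. In the BLM dissolvasome the adjusted p was 1.01e-16 for BLM, 4.35e-13 for RMI1 and 2.25e-11 for RMI2. HT-29 gave the lowest change of the 6 lines for 20 members, and COLO320 the highest for 17, counts with no share over all tested genes beside them. CHEK1 ranged from -0.996 in HT-29 to -0.08 in HCT116, TOPBP1 from -1.08 in HT-29 to -0.04 in COLO320, and FANCI from -0.68 in HT-29 to 0.00 in COLO320 on the log2 scale. BRCA2 went from -0.41 in HT-29 to 0.365 in COLO320.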

How the results depend on the processing

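The counts of members called in each line and for the average kept within 1.5 times their value under other pseudocounts, other filters, quantile scaling, median centring, separate fits and voom on the recovered reads. Exceptions came from 2 alternatives. With the cell line as the unit, 18 of 34 members were called for the average (16 lower and 2 higher) and 27 of the 62 other pathway genes (55 in the fit over libraries). That test has 6 values per gene, and its share of calls over all tested genes was not computed. With total reads as the divisor, 0 members were higher in HCT-15 in place of 3, and BRCA2 there turned to -0.016 (adjusted p = 0.752). The scalings put the median average change of all tested genes between -0.066 and -0.004.

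Leaving out each library in turn gave 33 to 34 members called for the average (27 to 28 lower, 6 higher), 24 to 26 in HCT116 (17 to 19 lower, 7 to 8 higher), 32 to 33 in SW480 (26 to 27 lower, 5 to 6 higher), 32 to 33 in HT-29 (29 to 30 lower, 3 higher), 33 in COLO205 (29 lower, 4 higher), 27 to 29 in HCT-15 (25 to 26 lower, 2 to 3 higher) and 23 to 26 in COLO320 (16 to 19 lower, 7 to 8 higher). It gave 55 to 58 other pathway genes, and 34 members for both tests between lines. Leaving out DMSO library 1 or JQ1 library 3 of HCT-15 ended the call of BRCA2 there. Calls that leaving out a single library could end were those of FANCL in HCT116 and COLO320, NBN and FANCF in SW480, FANCB and BRCA2 in HCT-15, FANCA, RAD51C and RMI2 in COLO320 and the average of RAD50.

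The replicate numbers gave no sign of pairing. Of 18 pairs of DMSO and JQ1 libraries with the same number, 0 correlated above 0.1 in their deviations (r from -0.148 to 0.049). Of the 18 DMSO libraries, 4 correlated best with their own number. Replicates differed little, so this check cannot exclude that the numbers mark shared cultures, which the labels do not state. With the replicate number as a block, all member counts stayed within 1.5 times, and 3 single calls were lost: FANCA (adjusted p = 0.0595) and FANCL (adjusted p = 0.0524) in COLO320 and NBN (adjusted p = 0.0982) in SW480. RAD51B, at 35 reads in its poorest library, had the largest errors among the 34 apart from RAD51D.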
